A study of Mus musculus with 36 samples.

Results

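To determine how the host shapes BPTF-depleted 67NR tumors, 6 BPTF KD tumors grown in BALB/c mice were compared with 6 BPTF KD tumors grown in NSG mice. These 12 tumors were chosen by their labels alone, as the 67NR tumors labelled Bptf KD, and are 12 of the 36 tumors profiled in the series. Each was 1 Affymetrix array of total RNA from a snap-frozen tumor, and every value below is a log2 level after the depositors' RMA summary, read from 1 probe set for each of 12394 genes. The tested difference is BALB/c minus NSG, so a positive value means a higher level in the BALB/c tumors.

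67NR is a mouse mammary carcinoma line of BALB/c origin that forms primary tumors. The cells of both groups carried a retrovirus expressing a short hairpin RNA against Bptf, which encodes the largest subunit of the nucleosome remodeling factor NURF. 2 different hairpins were in use, and the labels do not say which tumor carried which. The cells were placed in the fourth mammary fat pad of female mice that were 6 to 8 weeks old, and the tumors were removed after 21 days. The BALB/c host is syngeneic to the tumor cells and has an intact immune system. The NSG host, given in the labels as NOD/SCID/Ifrg2r -/-, combines the NOD background, the scid mutation and loss of the common gamma chain of the interleukin receptors. Strain background, immune deficiency and a match between host and tumor at the major histocompatibility complex (MHC) changed together between the groups and cannot be told apart. Necrotic tissue was cut away before extraction where it was seen.

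As background, NSG mice lack mature T cells, B cells and NK cells, and their macrophages and dendritic cells are functionally impaired. In a host with lymphocytes, T cells and NK cells that meet tumor cells release granzymes and perforin, and they secrete interferon gamma. Interferon gamma acts on tumor cells, macrophages and endothelium, and turns on antigen presentation genes, guanylate-binding proteins and the chemokines CXCL9, CXCL10 and CXCL11, which attract more lymphocytes. NOD mice, the background of NSG, do not express the alpha chain of the class II molecule I-E and lack complement component C5. A bulk array cannot tell fewer cells of a type from less RNA per cell.

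The labelled host was checked first against the cells that define it. The T cell receptor subunit gene Cd3g was read at a level of 7.74, 10.54 and 12.80 (lowest, median and highest of 6) in BALB/c tumors, against 4.12, 4.46 and 4.59 in NSG tumors. The NK cell receptor gene Ncr1 was read at 6.56, 7.93 and 10.36 in BALB/c tumors, against 3.97, 4.18 and 4.53 in NSG tumors. For both genes every BALB/c tumor lay above every NSG tumor, and the NSG levels sat below 5.55, the first quartile of gene means, where no detection call is at hand and a difference may be understated, as for other genes read below that level in NSG tumors. Il2rg was not analysed here. Genes typical of 67NR were used to check the labelled line: 13 genes stood at least 2 log2 units higher in all 67NR than in all 66cl4 tumors of NSG mice, and their mean was 7.47 to 8.52 in the 67NR BPTF KD tumors of BALB/c mice, against 9.19 to 9.78 in those of NSG mice and 4.98 to 5.34 in 66cl4 BPTF KD tumors of BALB/c mice. The NSG tumors entered the choice of these genes and the BALB/c tumors did not, and the BALB/c tumors lay nearer to the 67NR than to the 66cl4 levels.

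Arrays correlated between 0.931 and 0.992 within the BALB/c group, between 0.975 and 0.995 within the NSG group and between 0.919 and 0.969 across hosts. Array medians were 7.12 ± 0.07 in BALB/c tumors and 7.14 ± 0.04 in NSG tumors (SD, n = 6 each, exact permutation test, two-sided p = 0.528). The Gapdh 3′ minus 5′ difference, a sign of RNA degradation, was larger in BALB/c tumors (0.33 ± 0.14, against 0.06 ± 0.07 in NSG tumors, SD, n = 6 each, exact permutation test over 924 splits, two-sided p = 0.00433, adjusted over 9 measures p = 0.039). The actin 3′ minus 5′ difference (1.26 in BALB/c and 1.18 in NSG tumors, exact permutation test, two-sided, n = 6 each, p = 0.74) and the mean of both (0.80 and 0.62, exact p = 0.195, adjusted p = 0.633) did not pass. The Gapdh difference also split by host in the other tumors used below. In 67NR Control tumors it was 0.24 to 0.33 in BALB/c and 0.01 to 0.05 in NSG mice. In 66cl4 BPTF KD tumors it was 0.17 to 0.27 in BALB/c and -0.12 to 0.06 in NSG mice. The part of RNA quality in the results was not tested beyond a fit with an RNA integrity covariate, which called 1537 genes higher and 1685 lower. 2 BALB/c tumors stood apart from the other 4. BALB/c tumor 1 had the highest mean of the actin and Gapdh 3′ minus 5′ differences, 1.32 against 0.55 to 0.80 in the other BALB/c tumors. BALB/c tumor 3 had a mean level of 29 skeletal muscle genes of 10.19, against 5.73 to 6.87 in the other BALB/c tumors and 5.81 to 6.48 in NSG tumors. List counts that moved most without these tumors are given both ways, and leaving both out was chosen after the data were seen.

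Bptf, the targeted gene, did not differ beyond its spread between hosts. It was read at 9.82, 10.68, 10.12, 9.83, 10.48 and 8.34 in BALB/c tumors 1 to 6, against 9.31, 9.23, 9.50, 9.78, 10.01 and 9.15 in NSG tumors 1 to 6. The difference was 0.38 and lay within the spread between tumors (exact permutation test, two-sided, n = 6 each, p = 0.325), and without BALB/c tumor 6, the lowest, it was 0.69 (exact p = 0.0173, not adjusted). For Bptf, 67NR Control tumors read 9.73 to 10.31 in BALB/c mice and 9.37 to 10.17 in NSG mice. These levels overlap those of the tumors labelled BPTF KD in both hosts. The ranges of the probe set read here thus do not set BPTF KD tumors apart from Controls. Overlap does not exclude a partly lower Bptf RNA, and BPTF KD tumors were not tested against Controls for it. BPTF KD is used below as the label. Other probe sets of Bptf were not set beside Controls here. The paper assayed BPTF protein in extracts of the cell lines by Western blot, which the array does not measure.

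In the fit of the 12 tumors, 1003 genes were higher in BALB/c tumors (8.09% of 12394 genes tested) and 954 were lower (7.7%) at an adjusted p below 0.05 (limma, Benjamini-Hochberg over all genes). The median difference over all genes was 0.04. At least 2-fold, 504 of the higher genes and 327 of the lower genes remained, and at 8-fold or more, 72 and 12 (log2 of 3). Of the higher genes, 590 had all 6 BALB/c tumors above all 6 NSG tumors, and of the lower genes, 419 had all 6 below. Because these genes were called on the same difference, this separation is no added support, and its share over all genes was not counted. Without BALB/c tumors 1 and 3, 1351 genes were higher and 1277 lower, and 883 of the 1003 and 851 of the 954 were called again in the same direction. Among genes named below that passed, Cd4, Cd48, Ero1a, Idua, Lyve1, Nectin2, Ocln, Plet1 and Zbp1 lost the call under at least 1 other setting. Other probe sets, mostly dimmer ones, differed less for Aldoc, Cd160, Cd80, Edil3, Elavl2, Fbln1, Hdc, Idua, Papss2, Pfkfb3, Pfkp, Pkp2, Sgsh, Slc2a3, Slc4a1 and Tpm2. The 15 largest increases were Cxcl9, Ms4a4b, Gzma, H2-Ea, Cd3g, Ifi44l, Trbv1, Klrc1, Gzmb, Iigp1, Cxcl11, Cxcr6, Cxcl13, Gbp8 and Klrd1, and none of them lost its call under any setting tried.

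**Figure D1:**
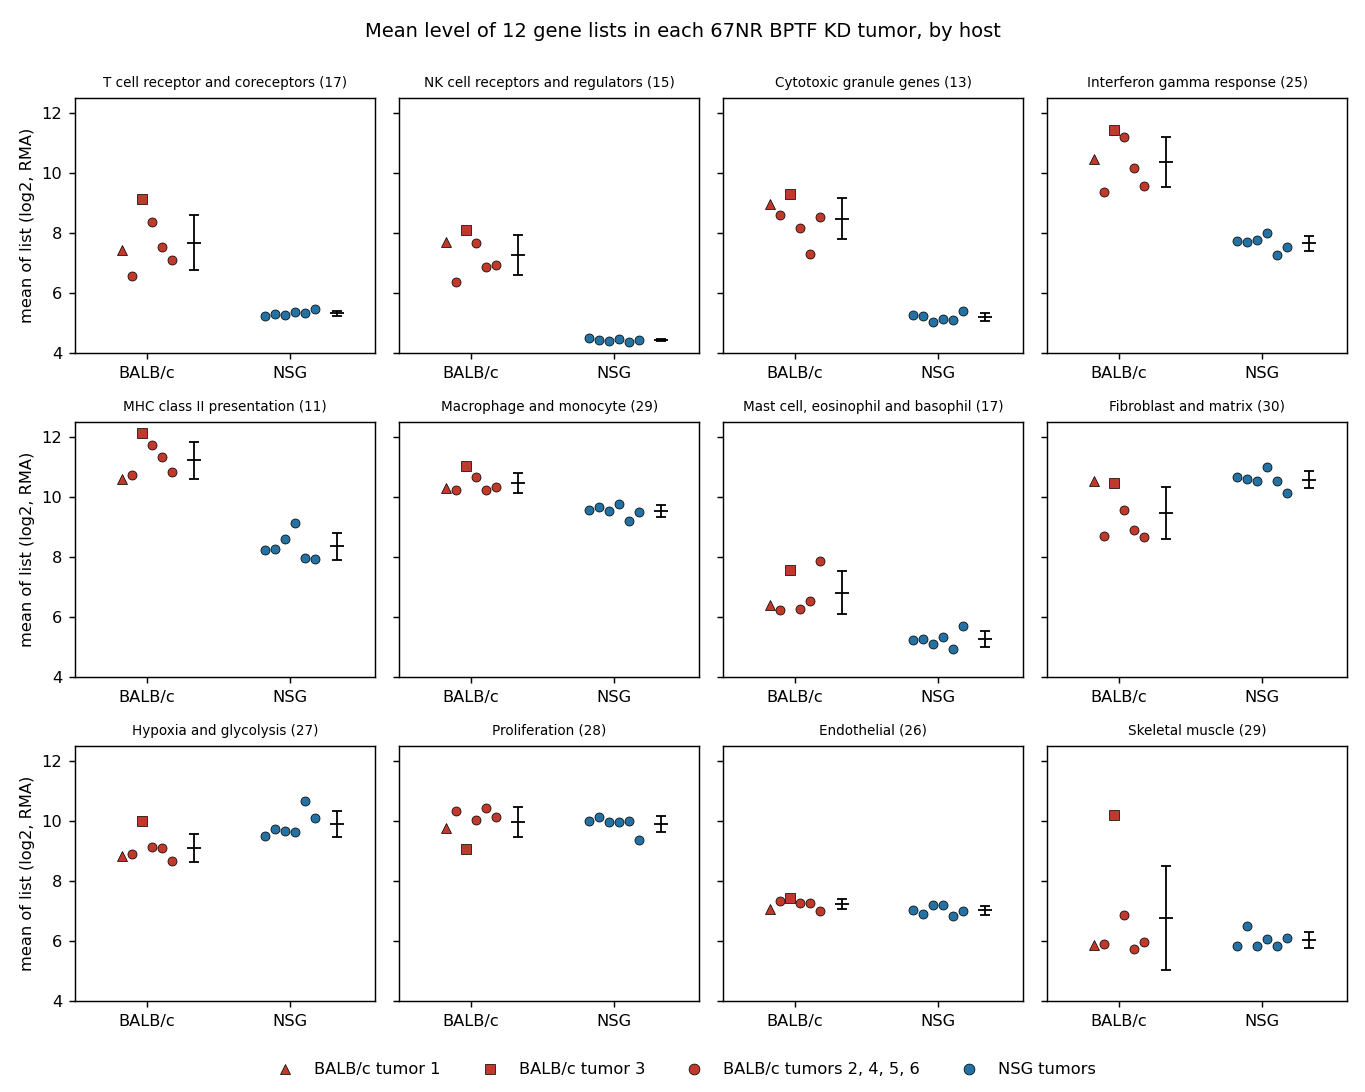
Mean log2 level (RMA) of 12 gene lists in each 67NR BPTF KD tumor, with BALB/c tumors (red) on the left of each panel and NSG tumors (blue) on the right, the number of genes read in brackets, and the mean ± SD of 6 tumors as black bars. The T cell, NK cell, granule, interferon gamma and MHC class II lists lie higher in all 6 BALB/c tumors, the fibroblast list lies below the NSG range in 4 of 6, and BALB/c tumor 3 alone has a muscle mean of 10.19.

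T cell genes rose together. Gene lists below share some members, and each is read by its counts. All 17 measured genes of the T cell receptor and its coreceptors were higher in BALB/c tumors, with a median difference of 2.18. Their mean level was 6.55, 7.47 and 9.13 (lowest, median and highest) in BALB/c tumors, against 5.22, 5.32 and 5.46 in NSG tumors, with no overlap. Cd3g rose by 6.17 ± 0.63 (log2 difference ± SE, adjusted p = 0.000109). Cd2, an adhesion receptor of T and NK cells, was read at 6.89, 8.33 and 10.00 in BALB/c tumors, against 4.11, 4.64 and 4.76 in NSG tumors, and rose by 3.88 ± 0.40 (adjusted p = 0.000112). Lat, the adaptor that links the receptor to its signaling enzymes, rose by 2.14 ± 0.25, the costimulatory receptor gene Cd27 by 3.42 ± 0.44, and the receptor subunit genes Cd3d and Cd3e by 4.05 ± 0.56 and 1.06 ± 0.20. The coreceptor gene Cd8a was read at 6.02, 7.51 and 10.29 in BALB/c tumors, against 4.93, 5.11 and 5.54 in NSG tumors, and rose by 2.60 ± 0.57 (adjusted p = 0.00857). Cd4 differed less, at 6.54, 6.83 and 7.32 in BALB/c tumors and 6.04, 6.28 and 6.68 in NSG tumors (0.55 ± 0.16, adjusted p = 0.0309), and 1 of 6 BALB/c tumors lay inside the NSG range. Foxp3, the transcription factor of regulatory T cells, was 0.35 ± 0.11 higher but just missed the threshold (adjusted p = 0.05002). The variable gene segment Trbv1 of the T cell receptor beta chain, among the largest increases, was read at 8.18, 10.29 and 11.90 in BALB/c tumors, against 3.42, 4.14 and 4.84 in NSG tumors. Ms4a4b, a membrane protein gene of T cells, rose by 6.79, and its second probe set differed by 0.84.

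NK cell genes and the granule genes shared by NK cells and cytotoxic T cells showed larger medians. Of 15 NK cell genes 11 were higher (median 2.72), and of 13 cytotoxic granule genes 11 were higher (median 2.94). None of either list was lower. Ncr1, which encodes the activating receptor NKp46, rose by 4.02 ± 0.48 (adjusted p = 0.000255). Klrc1 and Klrd1, the subunits NKG2A and CD94 of a receptor for nonclassical MHC, rose by 6.07 ± 0.62 and 5.38 ± 0.54. Klra2, of the Ly49 family, rose by 4.58 ± 0.38, while Klra1, Klra7 and Klra8 of that family did not pass the test, and Ly49 genes differ between mouse strains. Il2rb, the beta chain of the receptor for interleukin 2 and interleukin 15, rose by 3.05 ± 0.35. Among granule genes, Gzma was read at 9.65, 11.09 and 12.71 in BALB/c tumors, against 4.23, 4.71 and 4.95 in NSG tumors, a rise of 6.58 ± 0.40 (adjusted p = 3.83e-06). Gzmb was read at 8.80, 10.04 and 11.77 in BALB/c tumors, against 4.21, 4.66 and 5.06 in NSG tumors, a rise of 5.58 ± 0.42. The pore-forming protein gene Prf1 rose by 2.94 ± 0.41 (0.05 with its other probe set), the death receptor ligand gene Fasl by 4.42 ± 0.48 and the cathepsin gene Ctsw by 2.86 ± 0.37. Gzmm and Srgn, at 0.24 and 0.79, did not pass. Without BALB/c tumors 1 and 3 the counts were 16 of 17 for the T cell list, 12 of 15 for the NK cell list and 11 of 13 for the granule list. Ncr1 fell to a difference of 3.32 in that fit, BALB/c tumor 1 having its highest level (10.36).

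B cell genes were less uniform. Of 17 genes 10 were higher and none lower (median 0.82). Jchain, which joins secreted antibody, ranged from 4.15 to 10.76 over BALB/c tumors with a median of 6.72, against 3.45 to 3.77 in NSG tumors (median 3.70), a rise of 3.30 ± 0.82 (adjusted p = 0.0163). The surface marker Ms4a1 (CD20) rose by 3.04 ± 0.62 and the heavy chain gene Ighm by 2.27 ± 0.42, although Ighm was still read at 7.33 to 8.89 in NSG tumors and its other 10 probe sets gave differences from -0.14 to 2.55. Cd79a (0.24) and Pax5 (0.07), defining genes of the B lineage, did not pass.

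Most genes of a joint checkpoint and regulatory T cell list rose with the T cell genes. Of 16 checkpoint and regulatory T cell genes 12 were higher and none lower (median 1.82). Foxp3, the transcription factor of regulatory T cells, was among the 4 that did not pass. Ikzf2, of the same list, differed by 0.14, at means of 3.94 in BALB/c and 3.80 in NSG tumors. Ctla4 rose by 2.68 ± 0.31, Pdcd1 (PD-1) by 3.77 ± 0.54, Tnfrsf18 (GITR) by 3.12 ± 0.33 and Cd160 by 1.84 ± 0.24. Cd274, which encodes the PD-1 ligand PD-L1 and responds to interferon gamma, was read at 7.74, 8.93 and 11.09 in BALB/c tumors, against 5.25, 5.62 and 5.81 in NSG tumors (3.56 ± 0.49, adjusted p = 0.000617). Among 19 genes of the common gamma chain family 9 were higher and none lower (median 0.49), led by Il2rb, Il15ra (1.5 ± 0.24) and the feedback inhibitors Socs2 (1.62 ± 0.27) and Cish (1.11 ± 0.24), both targets of STAT5. All 5 measured GIMAP genes, lymphocyte GTPases, were higher (median 1.86), with Gimap7 at 5.25 ± 0.45.

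**Figure D2:**
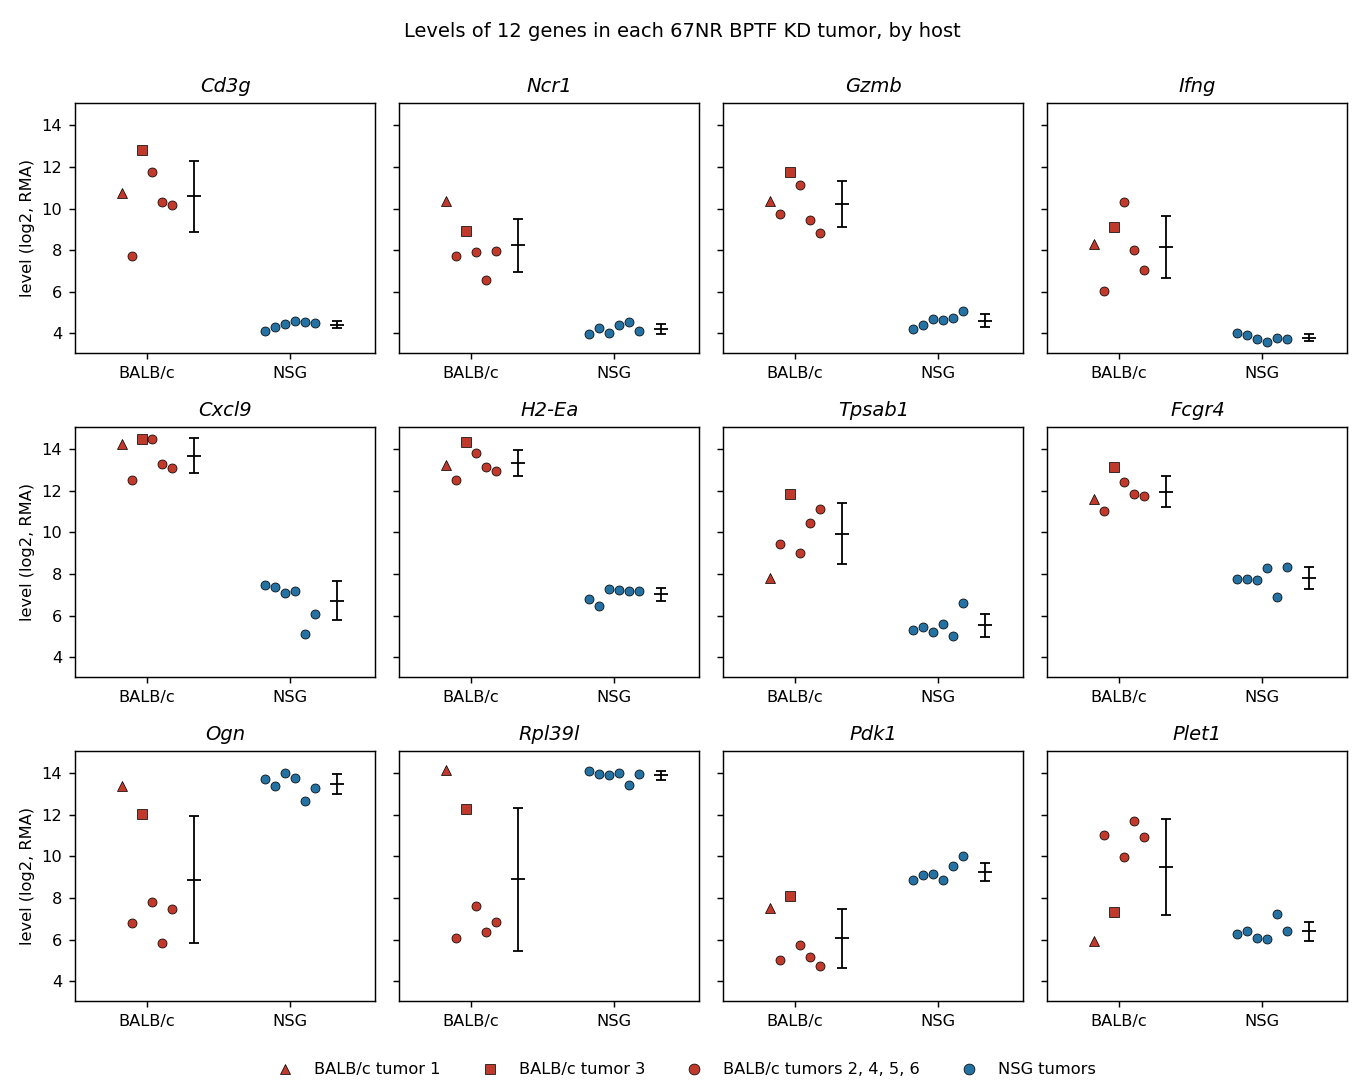
Log2 level (RMA) of 12 genes in each 67NR BPTF KD tumor, with BALB/c (red) left of NSG (blue) in every panel, BALB/c tumors 1 and 3 as a triangle and a square, and black bars giving the mean ± SD of 6 tumors. Cd3g, Ncr1, Gzmb, Ifng, Cxcl9, H2-Ea, Tpsab1 and Fcgr4 do not overlap between hosts, whereas BALB/c tumors 1 and 3 lie nearest to the NSG tumors for Ogn, Rpl39l and Plet1.

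Genes that respond to interferon gamma rose together as well. Of 25 measured genes 22 were higher in BALB/c tumors and none lower, with a median of 2.69 against 0.04 over all genes. Ifng itself was read at 6.05, 8.15 and 10.32 in BALB/c tumors, against 3.59, 3.75 and 4.03 in NSG tumors, a rise of 4.34 ± 0.55 (adjusted p = 0.000385). Among the probe sets read here, Cxcl9 had the largest increase, at 12.53, 13.78 and 14.50 in BALB/c tumors, against 5.11, 7.16 and 7.47 in NSG tumors (6.97 ± 0.46, 126-fold, adjusted p = 5.18e-06). Another probe set of H2-Ea differed by more (9.88). Cxcl11 rose by 5.48 ± 0.66 (1.35 with its other, dimmer probe set) and the immunity-related GTPase Iigp1 by 5.54 ± 0.39. The guanylate-binding protein genes Gbp7, Gbp3 and Gbp8 rose by 2.90 ± 0.32, 3.17 ± 0.39 and 5.38 ± 0.39, and the immunoproteasome subunit gene Psmb9 by 2.69 ± 0.31. The receptor genes Ifngr1 (0.28) and Ifngr2 (-0.01) and the nitric oxide synthase gene Nos2 (0.15) did not pass. Genes known mainly as targets of type I interferon moved less: of 20 genes 6 were higher (median 0.66), with Irf9 at 0.92 ± 0.19, Ifih1 at 1.70 ± 0.44 and Zbp1 at 2.10 ± 0.56. In that list 4 of 6 BALB/c tumors had a mean above the NSG range (7.64, 8.33 and 9.53 in BALB/c tumors, lowest, median and highest, against 7.14, 7.56 and 7.98 in NSG tumors), and without tumors 1 and 3 the list had 5 genes higher and 1 lower. Ifi44l, often counted with interferon targets, rose by 6.17 ± 0.45, and 1 of its other probe sets differed by 1.47.

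Promoters of genes that respond to interferon gamma can hold a site called GAS (TTCNNNGAA), and interferon regulatory factors bind a site whose core is written here as GAAANNGAA (the ISRE core). Windows from 250 bases before to 50 after the annotated start were taken from RefSeq (GRCm38.p6), the first listed window per gene, and both strands were searched. A GAS match was found in 8.5% of 27025 promoters and in 7 of the 19 matched promoters of the interferon gamma list (36.8%), and an ISRE core in 8.6% of all promoters and 9 of those 19 (47.4%). Over promoters of all genes tested the shares were 7.0% for GAS and 7.2% for the ISRE core. The type I interferon list, whose genes moved less, held GAS in 28.6% and the ISRE core in 57.1% of 14 matched promoters. Among promoters of all genes higher in BALB/c, 9.1% held GAS and 10.6% the ISRE core, and among those of lower genes 3.7% and 6.9%. A GAS and an ISRE core can share letters. Cxcl9, Gbp7 and Igtp are shown because they rose strongly and hold these letters, which are in capitals. All lines run 5′ to 3′ on the strand of the gene.
Cxcl9 (chr5:92328030-92328329, minus strand): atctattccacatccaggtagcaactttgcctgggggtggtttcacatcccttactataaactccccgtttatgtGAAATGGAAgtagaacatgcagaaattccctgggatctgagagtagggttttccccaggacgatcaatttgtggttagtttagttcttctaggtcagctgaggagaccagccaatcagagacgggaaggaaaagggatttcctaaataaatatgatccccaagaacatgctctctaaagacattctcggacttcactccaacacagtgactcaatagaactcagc
Gbp7 (chr3:142530086-142530385, plus strand): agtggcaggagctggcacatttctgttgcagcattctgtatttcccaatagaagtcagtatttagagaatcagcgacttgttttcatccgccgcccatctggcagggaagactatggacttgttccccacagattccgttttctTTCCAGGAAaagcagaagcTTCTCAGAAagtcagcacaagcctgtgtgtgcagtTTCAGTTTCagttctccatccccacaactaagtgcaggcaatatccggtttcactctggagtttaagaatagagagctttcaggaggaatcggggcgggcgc
Igtp (chr11:58199306-58199605, plus strand): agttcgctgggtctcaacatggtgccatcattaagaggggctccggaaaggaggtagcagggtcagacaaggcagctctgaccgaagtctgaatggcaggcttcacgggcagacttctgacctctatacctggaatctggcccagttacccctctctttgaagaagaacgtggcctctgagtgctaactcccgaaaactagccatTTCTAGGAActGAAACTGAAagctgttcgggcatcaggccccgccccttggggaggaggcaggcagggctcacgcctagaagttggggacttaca
The Cxcl9 window holds 1 ISRE core and no GAS, Gbp7 holds 2 GAS and 1 ISRE core on the opposite strand, and Igtp holds 1 of each. Igtp, an immunity-related GTPase chosen here after its values were seen, was read at 10.28, 12.03 and 13.22 in BALB/c tumors, against 7.29, 8.20 and 8.47 in NSG tumors (3.69 ± 0.46). A match is a description of the letters and not a measured site.

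Antigen presentation rose with the interferon genes. Of 11 genes of MHC class II presentation 10 were higher (median 2.69), and of 17 genes of class I loading 10 were higher (median 1.03). H2-Ea, the I-E alpha chain, had the smallest p of all genes and was read at 12.54, 13.20 and 14.36 in BALB/c tumors, against 6.48, 7.17 and 7.27 in NSG tumors (6.32 ± 0.27, adjusted p = 1.3e-07). Its other probe sets differed by 9.88 and 0.23, and NOD mice do not express this chain, so host strain and immune state cannot be told apart for it. The class II genes that NOD mice also carry were higher as well, H2-Eb1 by 4.56 ± 0.42, H2-Ab1 by 3.5 ± 0.39 and H2-Aa by 3.35 ± 0.41, with alleles that differ between the strains. H2-Aa was read at 13.30, 14.09 and 14.89 in BALB/c tumors, against 9.16, 10.74 and 12.09 in NSG tumors, without overlap. Ctss and H2-DMa, which trim and load class II, rose by 1.36 ± 0.18 and 2.69 ± 0.37. In class I, H2-K1 rose by 1.38 ± 0.15, the peptide transporter gene Tap1 by 2.42 ± 0.35 and the immunoproteasome gene Psmb8 by 2.38 ± 0.36. The other 3 probe sets of Tap1 gave differences from -0.08 to -0.03.

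Of 51 chemokine and receptor genes 23 were higher, 2 were lower and 26 did not pass (median 0.85), and without BALB/c tumors 1 and 3 the counts were 23 higher and 4 lower. The monocyte receptor gene Ccr2 rose by 2.55 ± 0.24, the monocyte attractant Ccl8 by 3.52 ± 0.46, Xcl1, made by NK and CD8 T cells, by 3.19 ± 0.42, and the lymphocyte receptor gene Cxcr6 by 5.45 ± 0.78. Cxcl13, which attracts B cells, spread widely in BALB/c tumors (7.58, 10.01 and 13, against 4.10, 4.64 and 5.64 in NSG tumors) and rose by 5.42 ± 0.68. Ccl27a (-1.89) and the scavenging receptor gene Ackr3 (-1.07) fell, with all 6 BALB/c tumors below all 6 NSG tumors for both.

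Myeloid cells exist in both hosts. Of 29 macrophage and monocyte genes 12 were higher and none lower (median 0.70). Fcgr4, an activating receptor for IgG, was read at 11.02, 11.80 and 13.14 in BALB/c tumors, against 6.91, 7.76 and 8.35 in NSG tumors (4.16 ± 0.33, 17.9-fold, adjusted p = 2.11e-05). The inhibitory receptor gene Fcgr2b rose by 1.64 ± 0.17, and the lectin genes Clec10a and Mgl2 by 2.78 ± 0.34 and 2.65 ± 0.38. The general macrophage genes Adgre1 (0.70), Csf1r (0.92) and Cd68 (0.40) did not pass. Arginase 1 (Arg1) did not pass (-1.96 ± 0.94, adjusted p = 0.187), and its BALB/c levels were spread, at 10.77, 5.56, 11.46, 8.69, 5.6 and 7.18 in tumors 1 to 6, against 9.57 to 10.78 in NSG tumors. Tumors 1 and 3 had the highest BALB/c levels of Arg1. Without them its difference was -3.42 (limma, adjusted p = 0.00116). That fit was chosen after the data were seen, so this p is no added support. In that fit the macrophage and monocyte list had 18 genes higher and 1 lower. Of 18 dendritic cell genes 12 were higher (median 1.34), among them the costimulatory ligand Cd80 (2.32 ± 0.32), the transcription factor Batf3 (2.0 ± 0.34) and Itgax (2.69 ± 0.47). Of 17 neutrophil genes 7 were higher (median 0.48), with the formyl peptide receptor gene Fpr2 at 9.57, 11.56 and 12.97 in BALB/c tumors, against 4.86, 6.63 and 7.70 in NSG tumors (5.0 ± 0.60), while S100a9 (0.45) did not pass. Without BALB/c tumors 1 and 3, 5 of the 17 were higher.

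Mast cell genes were higher in BALB/c tumors although NSG mice also have mast cells. Of 17 mast cell, eosinophil and basophil genes 9 were higher and none lower (median 1.16), and the eosinophil genes Epx and Prg2 did not pass. The tryptase gene Tpsab1 was read at 7.82, 9.96 and 11.84 in BALB/c tumors, against 5.03, 5.39 and 6.60 in NSG tumors (4.41 ± 0.58, adjusted p = 0.000422). The granule protease genes Cpa3, Cma1 and Mcpt4 rose by 3.12 ± 0.53, 3.0 ± 0.56 and 2.83 ± 0.49, and the IgE receptor gene Fcer1a by 3.07 ± 0.61. Hdc, which makes histamine, was read at 6.43, 6.68 and 7.31 in BALB/c tumors, against 5.15, 5.46 and 5.53 in NSG tumors (1.36 ± 0.15). In complement 7 of 23 genes were higher and Colec12 was lower (median 0.54). Hc, which encodes C5, was read at 4.99, 5.71 and 6.09 in BALB/c tumors, against 4.14, 4.32 and 4.58 in NSG tumors (1.28 ± 0.17, adjusted p = 0.000442), a gene that the NOD background lacks in functional form.

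A part of the matrix genes fell. Of 30 fibroblast and matrix genes 11 were lower and 2 higher in BALB/c tumors and 17 did not pass (median -1.07, against 0.04 over all genes). The collagen crosslinker Loxl1 fell by 1.70 and the collagen VI genes Col6a1 and Col6a2 fell too (-2.17 and -1.57), each with all 6 BALB/c tumors below all NSG tumors. Biglycan (Bgn) was read at 8.36, 10.33 and 11.95 in BALB/c tumors, against 11.84, 12.69 and 13.75 in NSG tumors (-2.59 ± 0.53, adjusted p = 0.00604), with 1 BALB/c tumor inside the NSG range. The smooth muscle actin gene Acta2 fell by 1.64, although its second probe set differed by 0.12. The defining fibroblast genes Col1a1 (-1.06), Lum (-0.88) and Pdgfra (-0.30) did not pass, and decorin (Dcn) did (-2.15 ± 0.64). Fbln1 (0.87 ± 0.24) and Thy1 (1.40 ± 0.43) were the 2 that rose, and Thy1 also marks T cells. In this list BALB/c tumors 1 and 3 lay inside the NSG range: without them 20 genes were lower and 2 higher, with a median of -1.66. 67NR cells are themselves able to make matrix, and the array does not say which cells made these RNAs.

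Several of the largest decreases showed the same split among the BALB/c tumors. Matrilin 2 (Matn2), a matrix protein and the largest decrease, was read at 11.07, 4.18, 8.82, 4.83, 4.77 and 5.26 in BALB/c tumors 1 to 6, against 11.35 to 11.82 in NSG tumors (-5.17 ± 1.02, adjusted p = 0.00498). Rpl39l, a paralog of a ribosomal protein gene, was read at 14.17, 6.07, 12.29, 7.60, 6.38 and 6.85 in BALB/c tumors 1 to 6, against 13.44 to 14.09 in NSG tumors (-5.0 ± 1.26, adjusted p = 0.0175). Osteoglycin (Ogn) was read at 13.38, 6.79, 12.02, 7.80, 5.84 and 7.46 in BALB/c tumors 1 to 6, against 12.67 to 14.00 in NSG tumors (-4.59 ± 1.13). For these genes BALB/c tumors 1 and 3 were nearer to the NSG range than the other 4, and tumor 1 lay inside or above it for Rpl39l and Ogn. Without both tumors the differences were -6.89, -7.17 and -6.50 for Matn2, Rpl39l and Ogn. 67NR Control tumors read 6.29 to 7.82 for Rpl39l in BALB/c mice, against 12.50 to 13.57 in NSG mice. Plet1, an epithelial progenitor gene, ran the opposite way, at 5.93, 11.01, 7.34, 9.99, 11.71 and 10.95 in BALB/c tumors 1 to 6, against 6.02 to 7.24 in NSG tumors (3.09 ± 0.86, adjusted p = 0.0291, and 4.52 without tumors 1 and 3), while its second probe set differed by 0.22. Over the 954 lower genes, the number in which a BALB/c tumor was not below the NSG range was 294 for tumor 1, 137 for tumor 2, 106 for tumor 3, 21 for tumor 4, 62 for tumor 5 and 84 for tumor 6. Tumor 1 was the tumor with the lowest RNA integrity and tumor 3 the muscle-rich one, and the part of either in this split was not tested.

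The largest decreases without overlap included Osr1 and F3. The transcription factor gene Osr1 was read at 4.15, 4.72 and 6.19 in BALB/c tumors, against 7.66, 8.32 and 9.38 in NSG tumors (-3.40 ± 0.36, adjusted p = 0.000116). Tissue factor (F3), which starts coagulation, was read at 5.58, 6.85 and 7.95 in BALB/c tumors, against 9.28, 9.96 and 10.47 in NSG tumors (-3.13 ± 0.39). Both genes separated the hosts in all 12 tumors. Efemp1, Elavl2, Edil3, Slc38a4, Igfbp6, Tubb2b, Ecrg4 and Pkp2, the rest of the 15 largest decreases beside Pdk1 and Adm, had differences from -3.85 to -2.92.

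Of 27 hypoxia and glycolysis genes 12 were lower and 4 higher in BALB/c tumors, and 11 did not pass (median -0.78). Vegfa, the angiogenic growth factor, was read at 7.27, 7.71 and 8.34 in BALB/c tumors, against 8.84, 9.56 and 10.17 in NSG tumors (-1.85 ± 0.22, 3.61-fold lower, adjusted p = 0.000274). Pdk1, a pyruvate dehydrogenase kinase gene, was read at 4.75, 5.47 and 8.09 in BALB/c tumors, against 8.85, 9.12 and 10.00 in NSG tumors (-3.20 ± 0.54), and adrenomedullin (Adm) fell by 2.92. Eno2, Ero1a and Pfkl fell too (-2.57, -1.34 and -1.22), although the other probe set of Pfkl differed by -0.16. The 4 that rose were the glucose transporter gene Slc2a3 (1.63 ± 0.45), Pfkfb3 (1.5 ± 0.37), Pfkp (1.12 ± 0.34) and Aldoc (0.81 ± 0.19), and Slc2a3 and Pfkfb3 are known to be high in activated leukocytes. Hif1a did not pass (0.28), nor did any of 34 genes of the mitochondrial respiratory chain (median 0.03). Without BALB/c tumors 1 and 3, 15 were lower and 3 higher. NSG tumor 5 had the highest Adm (12.26).

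Hypoxia-inducible factors bind a core written here as ACGTG. That core was found on either strand in 19.7% of all promoters of this length, in 23.6% of the promoters of genes tested and in 16 of the 25 matched promoters of the hypoxia and glycolysis list (64.0%). Promoters of all genes lower in BALB/c held it in 26.9%, and those of higher genes in 19.2%, both near the share of genes tested. Ero1a, an oxidase of protein folding, and Bnip3, which drives removal of mitochondria, are shown because they fell and hold the core, in capitals.
Ero1a (chr14:45318523-45318822, minus strand): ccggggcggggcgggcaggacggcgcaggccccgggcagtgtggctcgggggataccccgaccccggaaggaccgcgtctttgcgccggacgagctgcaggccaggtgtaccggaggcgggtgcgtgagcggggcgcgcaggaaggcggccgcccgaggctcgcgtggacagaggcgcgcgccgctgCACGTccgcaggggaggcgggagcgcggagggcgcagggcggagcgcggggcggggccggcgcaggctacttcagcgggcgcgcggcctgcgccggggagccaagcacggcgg
Bnip3 (chr7:138909457-138909756, minus strand): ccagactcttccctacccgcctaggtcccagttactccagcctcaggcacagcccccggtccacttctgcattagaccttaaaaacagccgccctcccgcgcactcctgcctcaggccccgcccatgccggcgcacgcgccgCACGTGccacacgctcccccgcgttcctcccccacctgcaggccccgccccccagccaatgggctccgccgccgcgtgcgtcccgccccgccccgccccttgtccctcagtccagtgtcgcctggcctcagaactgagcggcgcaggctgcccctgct
In Ero1a the match lies on the opposite strand, and in Bnip3 the capitals are 2 overlapping matches, 1 on each strand. Bnip3, chosen after its values were seen, was read at 9.21, 10.27 and 12.60 in BALB/c tumors, against 12.01, 12.52 and 13.42 in NSG tumors (-2.16 ± 0.50, adjusted p = 0.0114), and 1 BALB/c tumor lay inside the NSG range. The windows of Vegfa, Pdk1, Adm, Eno2 and Pfkl, which also fell, do not hold these letters.

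None of 28 proliferation genes passed (median 0.11), and Mki67 was read at 11.01, 11.53 and 12.11 in BALB/c tumors and 10.86, 11.37 and 11.52 in NSG tumors. Of 26 endothelial genes Vwf rose (1.66 ± 0.31) and the lymphatic marker Lyve1 fell by 2.08, and Pecam1, Cdh5 and Kdr did not pass. Of 26 epithelial genes Plet1 and Ocln rose (Ocln by 0.48), and Krt18, Epcam and Cdh1 did not pass. Krt8 just missed the threshold (-1.48, adjusted p = 0.052). The 29 skeletal muscle genes had a median of 0.92, and of 0.21 without BALB/c tumors 1 and 3, and 1 of them passed (Tpm2, which fell by 1.76 and is also made in other contractile cells). Of other tissues, 1 of 19 adipocyte genes (Cebpa, which rose), 1 of 13 milk genes (Ltf, which rose) and 3 of 8 red blood cell genes passed (Car2 rose, Alas2 and Slc4a1 fell). Without BALB/c tumors 1 and 3, 5 proliferation genes and 4 respiratory chain genes were higher, and the genes higher and lower numbered 3 and 1 for endothelium, 1 and 2 for epithelium, 3 and 3 for muscle, 3 and 0 for adipocytes and 3 and 0 for milk.

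The study asked how BPTF bears on the ligands that NK cells see, including heparan sulfate chains, so those genes were read too. Of 31 genes that build or break down heparan sulfate 5 were higher and 3 lower (median 0.10). Over all genes tested 8.09% were higher and 7.7% lower, and the list as a whole was not tested against these shares. The polymerase gene Ext1 was read at 9.02, 9.62 and 10.37 in BALB/c tumors, against 11.03, 11.44 and 11.95 in NSG tumors (-1.80 ± 0.21, adjusted p = 0.000226). The sulfotransferase gene Hs2st1 fell by 1.00, and Papss1, which makes the sulfate donor, fell by 0.92. Its paralog Papss2 rose by 1.51 ± 0.43, and Sgsh, Idua, Ndst4 and Hs3st3a1 rose by 0.28 to 0.76. Hs3st3a1 had means of 4.30 in BALB/c and 4.02 in NSG tumors, both below the first quartile of gene means (5.55). The sulfotransferase gene Ndst3 did not pass (0.06), and Hpse was not analysed here. Of 14 proteoglycan core genes 4 fell, with differences of -1.81 for syndecan 2 (Sdc2), -1.44 for Col18a1, -0.89 for Gpc1 and -0.77 for Nrp1. Of 12 NK cell ligand and adhesion genes Clec2i (1.65 ± 0.25), Icam1 (1.97 ± 0.44) and Cd48 (1.58 ± 0.49) rose and Nectin2 fell by 0.43, with a list median of 0.24 that was 0.0012 without BALB/c tumors 1 and 3, where 2 were higher and 1 lower. Of 8 NURF genes Smarca5 fell by 0.45, with the others, Bptf included, not passing.

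The host effect was then set beside that in 67NR Control tumors (3 in BALB/c and 3 in NSG mice), which are other mice. In Controls 487 genes were higher in BALB/c (3.93% of those tested) and 453 lower (3.65%). Of the 1003 genes higher in BPTF KD tumors, 301 were higher in Controls too (30.0% of 1003 and 61.8% of 487), and of the 954 lower genes, 241 were lower there (25.3% of 954 and 53.2% of 453). Only 1 gene was called in opposite directions. Across all 12394 genes, which are not independent, the 2 host effects correlated at 0.75. List medians in BPTF KD tumors and in Controls were 2.69 and 0.73 for interferon gamma, 2.18 and 0.58 for T cells, 2.72 and 1.31 for NK cells, 2.94 and 1.76 for cytotoxic granules, and 1.16 and 0.20 for mast cells, and they were close for fibroblast (-1.07 and -0.90) and hypoxia genes (-0.78 and -0.72). For the difference of the 2 host effects itself, no gene passed (0% of 12394, limma interaction), with 854 genes at an unadjusted p below 0.05 and a smallest adjusted p of 0.0637. That p was reached by Hdc, H2-Ea and Pak3. Hdc differed by 1.36 between hosts in BPTF KD tumors and -0.05 in Controls, H2-Ea by 6.32 and 3.74, and Pak3, a kinase gene, by -1.27 and 0.00. The other 5 of the 8 genes with the smallest p were H2-DMb2, Pde7a, Myb, Gbp8 and Commd6. Ifng differed by 4.34 in BPTF KD tumors and 1.06 in Controls, a difference of 3.29 that did not pass (adjusted p = 0.443). With 3 Controls per host, a miss does not show that the host effects were alike.

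**Figure D3:**
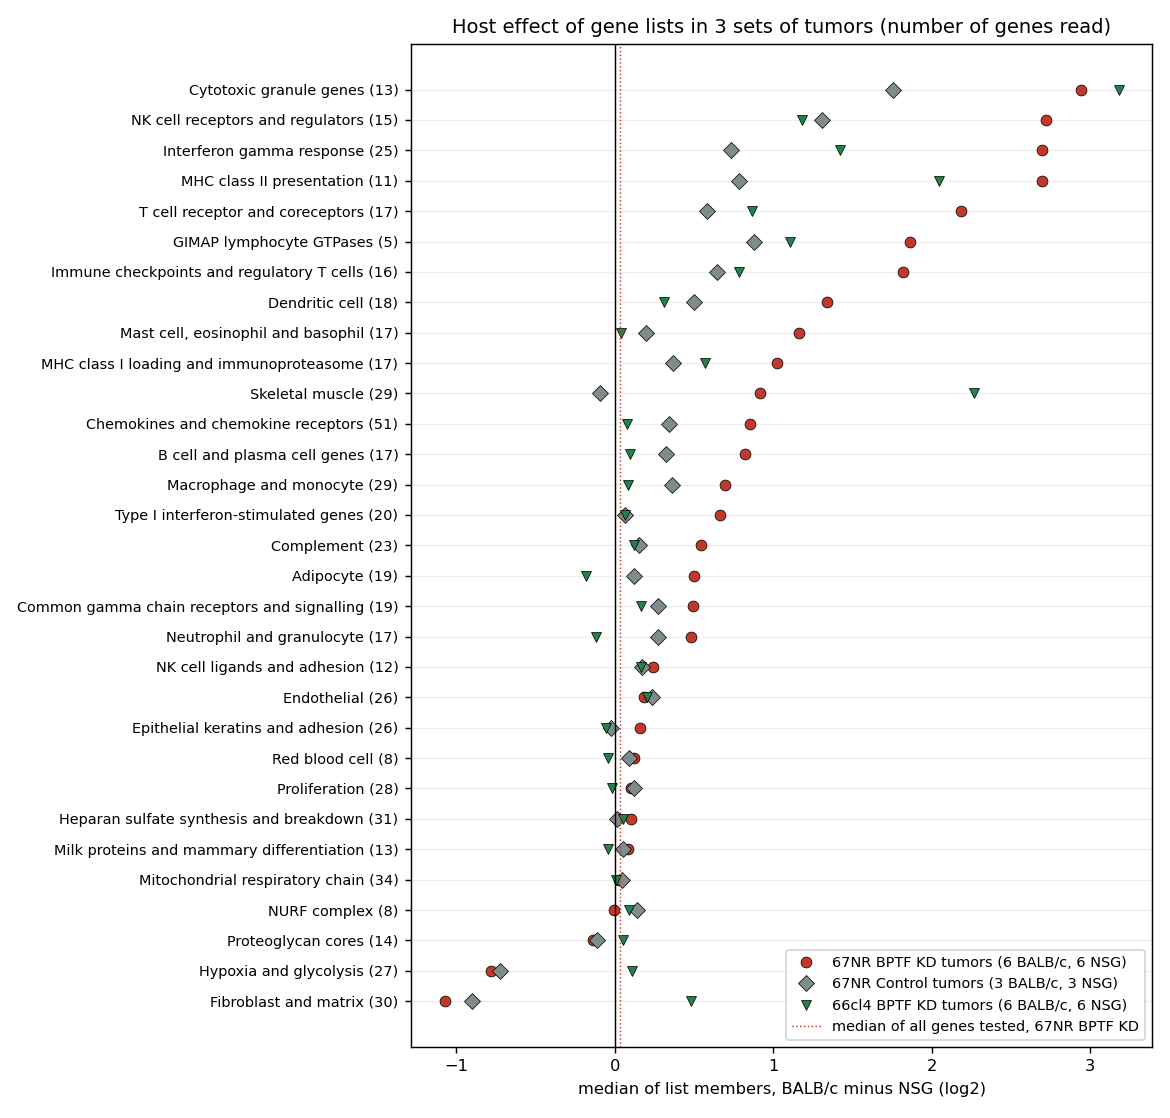
Median over list members of the difference between hosts (BALB/c minus NSG, log2) for 31 gene lists in 67NR BPTF KD tumors (circles), 67NR Control tumors (diamonds) and 66cl4 BPTF KD tumors (triangles), with the number of genes read in brackets and a dotted line at the median of all genes (0.04). In 67NR BPTF KD tumors the lists run from -1.07 (fibroblast and matrix) to 2.94 (cytotoxic granule), and the fibroblast list is at 0.48 in 66cl4 tumors.

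The same knockdown in 66cl4, a sister line from the same original tumor, gave a second comparison. These 12 tumors (6 in each host) were taken at 28 days, so line and day cannot be told apart, and the BALB/c ones were rich in muscle (mean of the muscle list 6.46 to 9.57, against 5.56 to 6.77 in NSG). In 66cl4 791 genes were higher in BALB/c (6.38%) and 579 lower (4.67%). Of the higher genes of 67NR, 346 were higher there too (34.5% of 1003 and 43.7% of 791), and of the lower genes 156 (16.4% of 954 and 26.9% of 579), while 29 genes lower in 67NR were higher in 66cl4 and 6 the reverse. Across genes the host effects correlated at 0.51.

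The host effect differed between the lines for 1116 genes (limma interaction). Of these, 528 had a more positive difference in 67NR (4.26%) and 588 a more negative one (4.74%). Of the 588, 82.8% were genes that fell in 67NR (7.7% of all genes did). Of the 528, 76.1% were genes that rose there (8.09% of all genes did). The 67NR host effect is part of the interaction, so such overlap is partly built in. The 8 smallest p values were all on the negative side. Pde7a, a phosphodiesterase, differed by -1.45 between hosts in 67NR and -0.01 in 66cl4, and Osr1 by -3.40 and -0.05. Pmepa1 and Itgb5, both tied to TGF-beta signaling, fell in 67NR (-1.16 and -1.17) and rose in 66cl4 (1.22 and 0.81). Tmem98, Sdc2, Cyp2d22 and Parp16 completed the 8, with interaction values of -2.31, -2.17, -1.55 and -1.52. All 15 of the largest decreases of 67NR differed between the lines, against 6 of the 15 largest increases (Ms4a4b, Gzma, Iigp1, Cxcl13, Gbp8 and Klrd1). Both sets were picked by their 67NR values, which enter the interaction. Cxcl13 differed by 5.42 between hosts in 67NR and 0.56 in 66cl4 (interaction 4.86, adjusted p = 0.000419), and Fpr2 by 5.0 and 0.68 (4.32, adjusted p = 0.000312). Cxcl9 differed by 6.97 and 5.90 and H2-Ea by 6.32 and 5.66, without passing. By list, 13 of 30 fibroblast genes and 11 of 27 hypoxia genes had a more negative host effect in 67NR and none a more positive one. A more positive host effect in 67NR was found for 8 of 15 NK cell, 7 of 17 T cell, 8 of 18 dendritic cell, 7 of 25 interferon gamma, 7 of 17 mast cell and 17 of 51 chemokine genes, with 2 chemokine genes more negative.

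**Figure D4:**
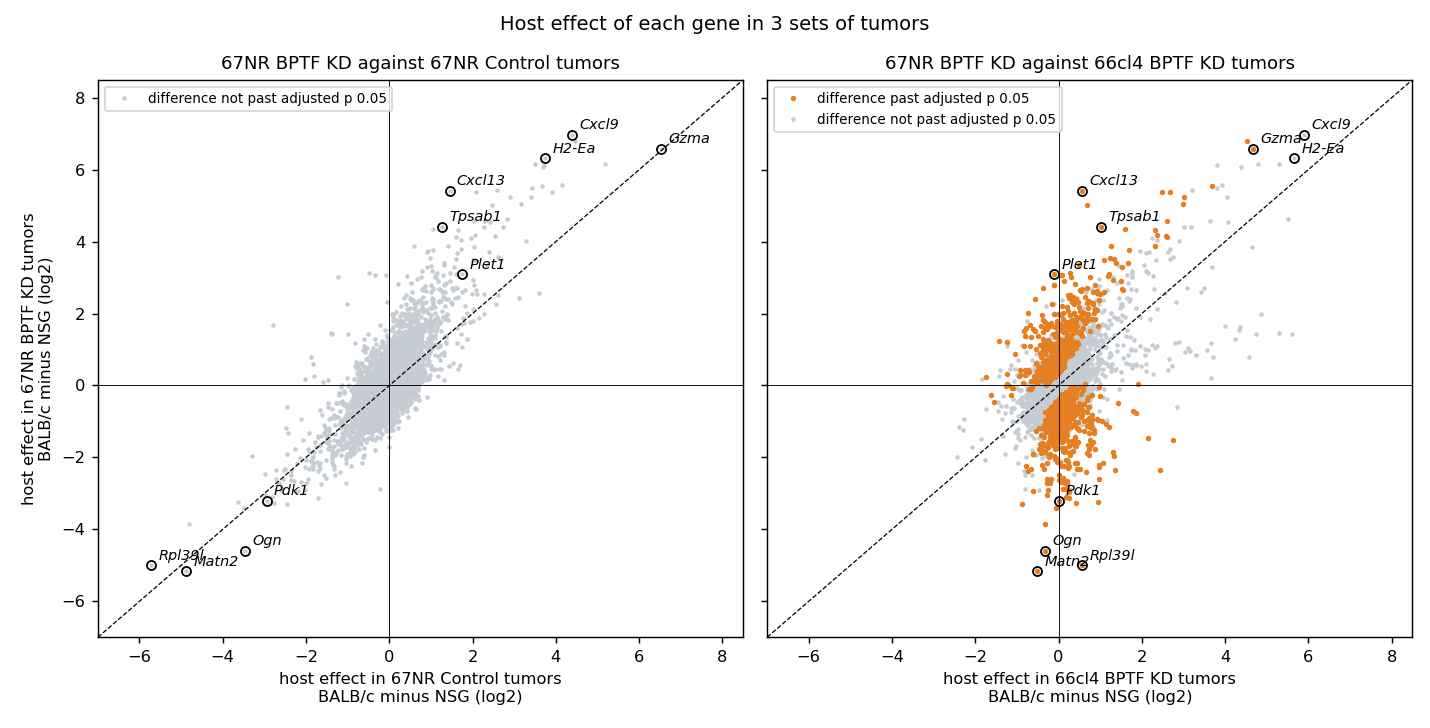
Difference between hosts (BALB/c minus NSG, log2) of each of 12394 genes in 67NR BPTF KD tumors (vertical axis) against that in 67NR Control tumors (left, horizontal axis) and in 66cl4 BPTF KD tumors (right), with a dashed line where both are equal and genes in orange where the difference of host effects passed an adjusted p of 0.05. Matn2, Rpl39l and Ogn lie at -5.17, -5.0 and -4.59 in 67NR BPTF KD tumors and between -0.52 and 0.57 in 66cl4, while Cxcl9 and H2-Ea are at 4.39 and 3.74 or more in all 3 sets.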

How the data were processed

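Total RNA (500 ng per tumor) from 36 snap-frozen tumors was hybridised to 1 Affymetrix mouse array each. The authors deposited log2 values summarised by RMA, whose version and background settings are not given in the sources used here. RMA draws arrays to a common distribution, so a shift shared by most genes would not be seen, and no detection calls were used. Of 22690 probe sets, 20393 had 1 gene symbol, 691 had several and 1606 had none. For each of 12394 genes the probe set with the highest mean over 36 arrays was read, without a filter.

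Groups were taken from the labels. Hosts were compared with limma (version 3.58.1, R 4.3.3) in the 12 tumors. P-values were adjusted by Benjamini-Hochberg across the 12394 genes, and 0.05 was the threshold. Differences of host effects were interaction terms over 18 and 24 arrays. Single measures were tested with exact two-sided permutation tests in scipy 1.17.1, and figures were drawn with matplotlib 3.10.9. The limma fit was tested on simulated data. The labels call the samples biological replicates and do not say more about the mice, so p-values measure the spread between these tumors.

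Named genes were the 15 largest increases and decreases that passed, up to 6 members with the smallest p in each list, defining markers, up to 8 genes with the smallest p in each interaction, genes named in the study, and members that went against their list. The 12 tumors and all 32 gene lists were chosen with earlier results of these data known. The number of arrays limits the precision. Other probe sets, normalizations, covariates, array weights, a replicate block, the methods' t-test and leaving out tumors were tried.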

Additional observations from a re-analysis of the deposited data

Results flagged for a closer look

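In 134 groups of 6 tumors checked for a single tumor far from the rest, 14 had one (10.4%, 8 in BALB/c and 6 in NSG tumors), where chance gives about 1 in 20 for independent groups. These groups are overlapping measures of the same 12 tumors. BALB/c tumor 1 had an RNA integrity measure of 1.32 (the others 0.55 to 0.80), an Elavl2 level of 8.06 and a Slc38a4 level of 7.04. BALB/c tumor 3 stood apart in the list means of skeletal muscle (10.19), hypoxia and glycolysis (9.99) and milk proteins (5.03, the lowest). BALB/c tumor 6 had the lowest Bptf (8.34) and the lowest mean of the NURF list (9.55), which also holds other genes. Among NSG tumors, tumor 4 had the highest epithelial mean (6.0), tumor 5 had the lowest GIMAP mean (6.31), the lowest Rpl39l (13.44) and the highest Adm (12.26), and tumor 6 had the lowest array median (7.06) and the lowest proliferation mean (9.36).

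Among the 15 largest increases, the 15 largest decreases and the 8 genes with the smallest interaction p, the host effect of 67NR minus that of 66cl4 passed the limma interaction test for 28 genes. The 8 genes were picked by that same p, and the largest changes by 67NR values, which enter the interaction. The count of 28 is therefore no separate support. Over all genes tested, 4.26% passed with a more positive and 4.74% with a more negative value. It was positive for Cxcl13 (4.86), Gbp8 (2.90), Klrd1 (2.70), Ms4a4b (2.27), Gzma (1.91) and Iigp1 (1.85). Among the largest decreases of 67NR it was -5.57 for Rpl39l, -4.64 for Matn2, -4.26 for Ogn, -4.18 for Slc38a4, -3.67 for Edil3, -3.52 for Efemp1, -3.37 for F3, -3.34 for Osr1, -3.27 for Igfbp6, -3.22 for Ecrg4, -3.20 for Pdk1, -3.17 for Adm, -2.76 for Tubb2b, -2.42 for Elavl2 and -2.32 for Pkp2. For the genes with the smallest p it was -2.38 for Pmepa1, -2.31 for Tmem98, -2.17 for Sdc2, -1.98 for Itgb5, -1.55 for Cyp2d22, -1.52 for Parp16 and -1.44 for Pde7a.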

How the results depend on the processing

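The count of genes with a host effect in 67NR BPTF KD tumors (1957) became 3222 with RNA integrity as a covariate, 3222 probe sets with all probe sets tested, 4235 with array weights and 3908 in a fit of all 36 tumors, and ranged from 1418 to 2478 with 1 tumor left out. The methods' t-test called 3619 genes at an unadjusted p below 0.05 and 1732 after Benjamini-Hochberg adjustment. The difference between BPTF KD and Control tumors (0 genes) became 1798 with array weights, 27 in the fit of all 36 tumors, 3 with a skeletal muscle covariate, 30 without BALB/c tumors 1 and 3 (chosen after seeing the data) and 0 to 16 with 1 tumor left out. With the replicate block it was 1. The difference between 67NR and 66cl4 (1116) became 1720 with the RNA integrity covariate, 1758 with all probe sets, 2690 with array weights, 1797 without tumors 1 and 3, and 824 to 1450 with 1 tumor left out. Subtracting array medians gave 645 higher and 455 lower, against 528 and 588. The Bptf difference (0.38) ranged from 0.22 to 0.69 with 1 tumor left out. The cause of these moves was not tested.

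Reversed values were -0.32 for Dsp and 0.15 for Slc4a1 with the largest-variance probe set, -0.024 for Ndst3 after another quantile normalization (-0.11 to 0.19 with 1 tumor left out, the lowest without BALB/c tumor 2), and -0.03 for Smarca1 with the RNA integrity covariate and -0.10 without tumors 1 and 3. Of 163 named genes that passed, 14 lost the call at least once over 23 settings. Same-numbered tumors of the 2 hosts correlated from -0.23 to 0.67 in their deviations, above 0.1 in 4 of 6 pairs, and 3 of 6 BALB/c tumors correlated best with their own number. The labels give no shared animal or batch, and not every pair correlated, so the numbers were not taken as pairs. The replicate block gave 2112 genes for the host effect and 1180 for the difference between lines. List medians moved beyond the spread in 11 of 512 list and setting pairs, such as mast cells (2.83) and neutrophils (1.30) without the dimmest 25% of genes.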
